A study of Mus musculus with 15 samples.

Results

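The genes described here are 10 chaperones and folding helpers of the endoplasmic reticulum (ER), measured in whole mouse liver: Hspa5, Hsp90b1, Hyou1, Dnajb9, Dnajc3, Pdia4, Pdia6, Sdf2l1, Creld2 and Manf. They were taken by name, without regard to their values, from the 18193 genes that have a probe set annotated to them alone. All 10 were measured, through 21 probe sets, and the brightest probe set of each gene, by its mean over the 15 arrays, was used. Expression was measured on an Affymetrix mouse genome array, and values are log2 levels after robust multi-array averaging (RMA). The study asked whether liver expression patterns of male mice that met a nutritional challenge around birth are also found in their sons. Each of the 15 arrays held a pool, with 3 pools in each of 5 groups, each taken here, from the titles, to combine 3 livers. Control pools 1 to 3 came from control males of both generations. Whether each pool mixes the generations is not stated, so no difference from control is one within a single generation for certain. IUGR F1 pools 4 to 6 came from adult males whose food supply in the womb was cut by 50% (IUGR), and ON F1 pools 7 to 9 from adult males overfed as sucklings (ON). IUGR F2 pools 10 to 12 and ON F2 pools 13 to 15 came from adult sons of such males. No strain or exact age is given. The labels do not tie pools to litters, so the spread behind each p-value is that between pools, which may be technical.

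The ER is where secreted and membrane proteins fold, and a liver cell exports most plasma proteins through it. Hspa5 (also called BiP or GRP78) is the HSP70 chaperone of this compartment, which binds unfolded chains and holds the stress sensors in check. When unfolded proteins build up, the sensors IRE1, PERK and ATF6 start the unfolded protein response, in which the transcription factors ATF6 and spliced XBP1 raise the chaperone genes. Many of these genes carry the ER stress response element (ERSE) before their start site, where NF-Y binds the CCAAT end and ATF6 or XBP1 the CCACG end.

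The promoters of the chaperone genes were therefore read first. The genes were taken by name, but the ERSE is already known from many such genes, so its presence here is a description and no independent result. RefSeq windows (GRCm38.p6, from 250 bases before to 50 bases after the annotated start) were at hand for 8 of the 10 genes. Those for Hyou1 and Manf were not analysed here. The ERSE was searched as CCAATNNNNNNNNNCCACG on both strands. It was found in 5 of the 8 genes, namely Hspa5, Hsp90b1, Dnajc3, Pdia6 and Creld2, against 39 of all 32851 windows (0.119%). Among related lists it was in 3 of 18 windows of other ER folding genes (16.7%: Calr, Canx and Ero1b), in 2 of 13 of ER-associated degradation (15.4%: Syvn1 and Derl3) and in 0 of 14 of ER translocation. Hsp90b1 held 2 copies. The matches follow in the direction CCAAT to CCACG, with the fixed letters in capitals, beside that of Syvn1. Of the 10 other genes whose levels followed the chaperones most closely, 8 had a window and Syvn1 was the 1 with an ERSE. Among other carriers, Ero1b and Calr correlated with the chaperone mean at 0.81 and 0.74, but Derl3 and Canx at 0.31 and 0.20.
Hspa5: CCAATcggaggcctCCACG
Hsp90b1, distal copy: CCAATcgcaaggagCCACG
Hsp90b1, proximal copy: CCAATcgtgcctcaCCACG
Dnajc3: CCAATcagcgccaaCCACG
Pdia6: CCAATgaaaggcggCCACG
Creld2: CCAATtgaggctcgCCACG
Syvn1: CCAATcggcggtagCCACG

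The copies of Hspa5, Dnajc3 and Pdia6 run along the gene's strand and begin 65, 105 and 98 bases before the start site. The Creld2 copy and the proximal Hsp90b1 copy lie on the opposite strand, with their first base in the window 126 and 107 bases before the start, and the distal Hsp90b1 copy begins 212 bases before it. The promoters of the ER HSP70, the ER HSP90 and the gene with the widest range over pools are shown in full over the 250 bases before the start, in the direction of the gene, with ERSE letters in capitals (the opposite-strand copies read CGTGG then ATTGG).
Hspa5, chr2:34771840-34772089, plus strand: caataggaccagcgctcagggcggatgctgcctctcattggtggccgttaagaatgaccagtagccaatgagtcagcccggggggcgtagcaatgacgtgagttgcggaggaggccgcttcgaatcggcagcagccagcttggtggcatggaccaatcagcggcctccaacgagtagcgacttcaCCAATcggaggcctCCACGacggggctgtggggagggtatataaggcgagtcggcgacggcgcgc
Hsp90b1, chr10:86705445-86705694, minus strand: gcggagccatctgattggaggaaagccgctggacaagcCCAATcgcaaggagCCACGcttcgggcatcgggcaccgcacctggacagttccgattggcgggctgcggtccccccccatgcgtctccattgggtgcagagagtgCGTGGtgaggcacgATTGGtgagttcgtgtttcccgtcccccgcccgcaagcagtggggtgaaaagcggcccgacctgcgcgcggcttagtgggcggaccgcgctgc
Creld2, chr15:88819396-88819645, plus strand: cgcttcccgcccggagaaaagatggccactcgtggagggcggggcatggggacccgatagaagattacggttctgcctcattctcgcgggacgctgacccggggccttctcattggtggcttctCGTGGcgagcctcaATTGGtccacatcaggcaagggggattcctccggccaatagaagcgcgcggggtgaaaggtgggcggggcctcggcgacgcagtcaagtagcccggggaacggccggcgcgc

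The related element ERSE-II (ATTGG, any 1 base, then CCACG, both strands, which shares its CCACG end with the ERSE) was in 0 of the 8 windows and in 0.0365% of all windows. The core of the XBP1 element (TGACGTGG, both strands, whose reverse strand also spells CCACG) was in 0 of the 8 and in 0.676% of all windows. Among the 10 other genes that followed the chaperones most closely, 1 of 8 windows held each element. These were Dnajb11 for the ERSE-II and Sec24d for the XBP1 core. A match is a string of letters and no evidence of binding in these livers. The 3 genes with a window and no full ERSE were Dnajb9, Pdia4 and Sdf2l1.

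Across the 15 pools the chaperone genes were high and low together, and for 8 of the 10 most of the variance lay between pools of the same group. The lowest level of each of the 10 genes was found in 1 of 3 pools: ON F2 pool 15 (5 genes), IUGR F1 pool 6 (4 genes) and ON F1 pool 7 (1 gene, Sdf2l1). In pools 6, 7 and 15, 0 of the 10 genes stood above their own mean, and in ON F2 pool 14 only 1 did, Hsp90b1. In control pool 3 and IUGR F1 pool 5 all 10 did. The median of the 10 genes lay at -0.57, -0.54 and -0.76 log2 units against the control mean in pools 6, 7 and 15 and at -0.43 in pool 14, whereas the other 11 pools lay between -0.17 and 0.10. These low pools belong to 3 different groups, and the other pools of IUGR F1 and ON F1 stood near control.

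**Figure D1:**
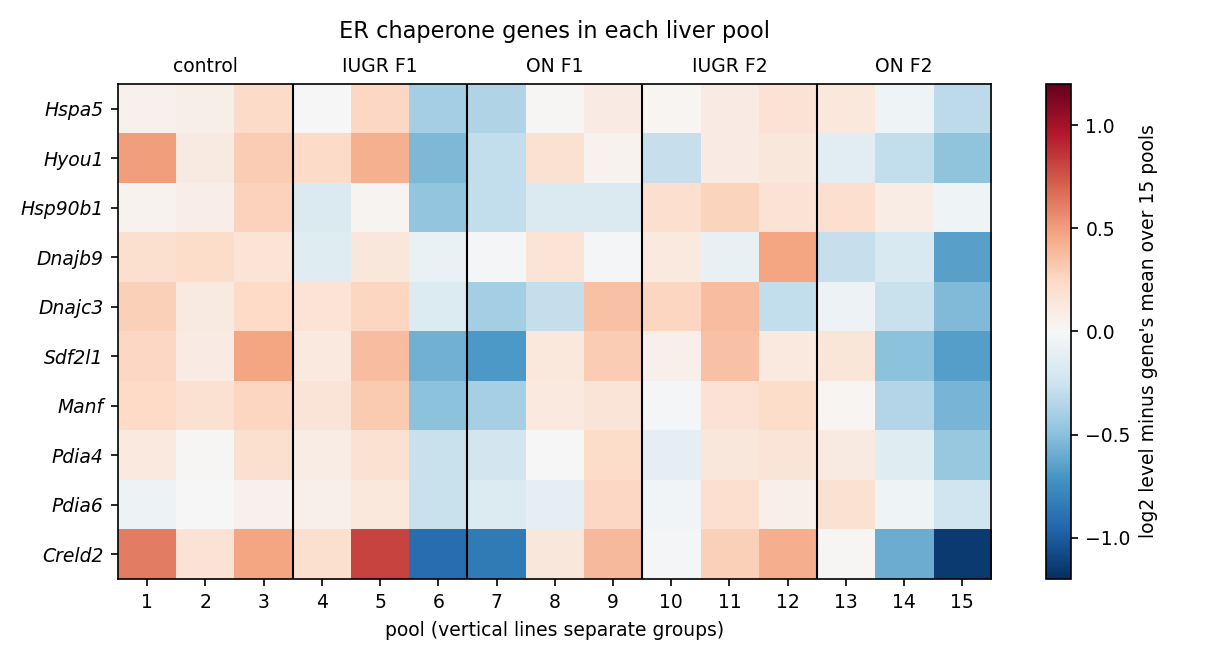
Heat map of the 10 ER chaperone genes (rows) in the 15 liver pools (columns, grouped by vertical lines); colour gives the log2 level minus the gene's own mean over the pools. Pools 6, 7 and 15 are blue in nearly all rows, with Creld2 deepest, and Hsp90b1 is lower in all ON F1 pools and higher in the IUGR F2 pools.

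Hspa5, the master chaperone, had a narrow range beside most of the 10 genes. It stood at 12.41, 12.42 and 12.59 in control pools 1 to 3, at 12.35, 12.60 and 11.95 in IUGR F1 pools 4 to 6 and at 12.00, 12.37 and 12.45 in ON F1 pools 7 to 9. In the second generation the levels were 12.38, 12.46 and 12.53 in IUGR F2 pools 10 to 12 and 12.49, 12.30 and 12.04 in ON F2 pools 13 to 15. Pools 6, 7 and 15 stood lowest, and each exposed group overlapped with control. The highest pool exceeded the lowest 1.57-fold. Hyou1, an HSP70-like nucleotide exchange factor for Hspa5, spanned 2.06-fold. It stood at 10.64, 10.25 and 10.45 in control pools 1 to 3, at 10.37, 10.56 and 9.60 in IUGR F1 pools 4 to 6 and at 9.85, 10.32 and 10.18 in ON F1 pools 7 to 9. In the second generation the levels were 9.86, 10.23 and 10.28 in IUGR F2 pools 10 to 12 and 10.00, 9.84 and 9.65 in ON F2 pools 13 to 15. All 3 ON F2 pools stood below the control pools, and the other groups overlapped with control.

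Hsp90b1 (GRP94, the ER form of HSP90, which matures integrins and Toll-like receptors) had a pattern of its own. It stood at 11.84, 11.89 and 12.08 in control pools 1 to 3, at 11.63, 11.83 and 11.33 in IUGR F1 pools 4 to 6 and at 11.51, 11.63 and 11.63 in ON F1 pools 7 to 9. In the second generation the levels were 12.01, 12.07 and 11.98 in IUGR F2 pools 10 to 12 and 12.00, 11.90 and 11.75 in ON F2 pools 13 to 15. All 6 first-generation pools stood below the 3 control pools, and all second-generation pools of a lineage stood above the first-generation pools of that lineage. The margin was small for pool 5 (11.83 against 11.84 in control pool 1). Of all 18193 genes, F2 pools lay wholly above F1 pools for 1323 in the IUGR lineage and for 1348 in the ON lineage. Control pools averaged 11.94 ± 0.13 (SD, n = 3), the IUGR lineage 11.60 ± 0.25 in F1 and 12.02 ± 0.05 in F2, and the ON lineage 11.59 ± 0.07 in F1 and 11.88 ± 0.13 in F2. The difference between F2 and F1 was 0.42 ± 0.11 (SE) in the IUGR lineage (limma adjusted p = 0.229) and 0.30 ± 0.11 in the ON lineage (limma adjusted p = 0.172), so neither passed over all genes. A dimmer second Hsp90b1 probe set gave another picture. It stood at 8.74 and 8.73 in ON F1 pools 7 and 8 but at 10.42 in pool 9. In ON F2 it stood at -0.52 against control, where the brighter set gave -0.05. By this dimmer set F2 and F1 pools overlapped in both lineages, with IUGR F1 pool 5 at 10.44 and IUGR F2 pool 12 at 9.58. The correlation between both sets over 15 pools was 0.63.

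The J-domain proteins hand clients to Hspa5 and start its ATP cycle. Dnajb9 (ERdj4) also promotes degradation of misfolded chains and restrains IRE1. It stood at 10.92, 10.94 and 10.89 in control pools 1 to 3, at 10.57, 10.86 and 10.64 in IUGR F1 pools 4 to 6 and at 10.69, 10.89 and 10.71 in ON F1 pools 7 to 9. In the second generation the levels were 10.84, 10.63 and 11.19 in IUGR F2 pools 10 to 12 and 10.44, 10.54 and 10.06 in ON F2 pools 13 to 15. All ON F2 pools stood below every control, IUGR F1, ON F1 and IUGR F2 pool, while control pools lay close together (SD 0.026). Dnajc3 (p58IPK), an inhibitor of PERK as well as a co-chaperone, split the groups from within. It stood at 10.23 and 10.35 in ON F1 pools 7 and 8 but at 10.99 in pool 9, and at 10.90 and 11.01 in IUGR F2 pools 10 and 11 but at 10.35 in pool 12. In control pools it lay between 10.74 and 10.92, and in ON F2 pools at 10.58, 10.38 and 10.11, all below control. Of the 4 other Dnajc3 probe sets, the brightest differed by only -0.08 in ON F2 and correlated with the one used at 0.45.

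Manf and Sdf2l1 act around the Hspa5 cycle: Manf is a secreted, ER-held factor that binds Hspa5, and Sdf2l1 works with the J-domain protein Dnajb11. Manf stood at 11.56, 11.49 and 11.57 in control pools 1 to 3, at 11.47, 11.63 and 10.82 in IUGR F1 pools 4 to 6 and at 10.91, 11.43 and 11.47 in ON F1 pools 7 to 9. In the second generation the levels were 11.29, 11.49 and 11.53 in IUGR F2 pools 10 to 12 and 11.34, 10.96 and 10.75 in ON F2 pools 13 to 15. Control pools lay close together (SD 0.041), and all ON F1 and ON F2 pools stood below them. Sdf2l1 stood between 9.42 and 9.80 in control pools, and at 8.75, 8.63, 8.83 and 8.66 in pools 6, 7, 14 and 15. The other pools lay between 9.38 and 9.70.

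The disulphide isomerases form and shuffle the bonds that lock secreted proteins. Creld2, a smaller ER protein with isomerase-like activity, had the widest range of the 10 genes, 3.88-fold between its highest and lowest pool. It stood at 10.48, 10.04 and 10.34 in control pools 1 to 3, at 10.06, 10.67 and 8.96 in IUGR F1 pools 4 to 6 and at 9.02, 10.00 and 10.26 in ON F1 pools 7 to 9. In the second generation the levels were 9.86, 10.16 and 10.30 in IUGR F2 pools 10 to 12 and 9.88, 9.28 and 8.72 in ON F2 pools 13 to 15. The 3 pools with the lowest levels were 15, 6 and 7, and pool 14 came next. Pdia4 (ERp72) ranged 1.60-fold, from 9.28 in pool 15 to 9.95 in pool 9. Pdia6 (P5) ranged 1.43-fold, from 10.65 in pool 6 to 11.17 in pool 9, the narrowest of the 10.

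**Figure D2:**
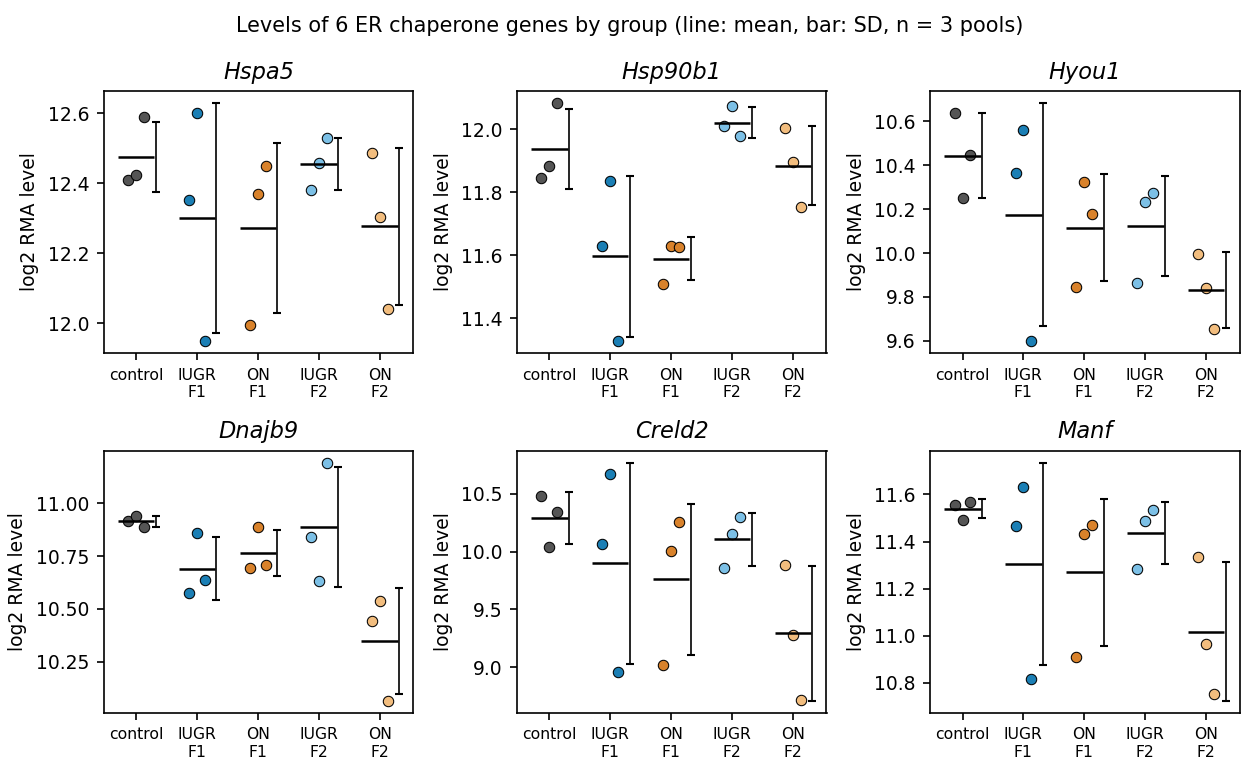
Log2 RMA levels of 6 chaperone genes by group; points are pools, the horizontal line is the mean and the bar the SD (n = 3 pools), and each panel has its own axis. Within IUGR F1 and ON F1 a single low pool (6 and 7) stands apart for Hspa5, Creld2 and Manf, while Dnajb9 is low in all 3 ON F2 pools and Hsp90b1 in all 6 first-generation pools.

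The genes' covariation was described by Pearson correlation over the 15 pools, which share 1 array type and 1 normalisation, so no p is attached. All 45 pairs were positive, with a median r of 0.73 (Spearman's rho 0.63) and a range from 0.20 to 0.99. The tightest pair was Creld2 and Manf (0.99, rho 0.97), followed by Sdf2l1 with Manf and with Creld2 (0.96 each). Hsp90b1 and Dnajb9 followed the others least, with median r of 0.49 and 0.53, and with each other at 0.20. After subtracting group means the median was 0.81 and 44 of 45 pairs were positive, with Dnajb9 and Dnajc3 at -0.19. Hsp90b1 then reached a median r of 0.77 with the others, while Dnajb9 stayed at 0.37. Without the 2 pools farthest from the median, pools 15 and 6, the median r was 0.59 and 43 of 45 pairs were positive.

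Within groups these genes varied more than most liver genes. The within-group SD was 0.57 for Creld2, 0.39 for Sdf2l1, 0.30 for Hyou1, 0.29 for Dnajc3 and 0.28 for Manf, against a median of 0.12 over 7815 genes with a mean of at least 6. Creld2 exceeded 98.9% of these genes, Sdf2l1 97% and Hspa5 86.7%. Group means accounted for 7.02% of the variance of Pdia6, 20.6% of that of Hspa5 and 34.7% of that of Creld2. The shares were higher for Hsp90b1 (69.8%) and Dnajb9 (63.6%), and the median over genes was 41.6%.

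Differences from control were tested with limma over all 18193 genes, with all 5 groups in 1 fit, and given as log2 differences ± SE. In ON F2 all 10 genes had lower means than in control, with a median difference of -0.51, against a median of -0.0026 and 50.7% negative over all genes. Creld2 differed by -0.99 ± 0.39 (9.29 ± 0.58 against 10.29 ± 0.22, SD, n = 3, limma adjusted p = 0.253), with all 3 pools below control. Hyou1 differed by -0.61 ± 0.21 (limma adjusted p = 0.201), Dnajb9 by -0.57 ± 0.14 (limma adjusted p = 0.13) and Manf by -0.52 ± 0.20 (limma adjusted p = 0.238), each below control in 3 of 3 pools. Sdf2l1 (-0.61 ± 0.27) and Dnajc3 (-0.50 ± 0.20) were of like size, the latter with 3 of 3 pools below control. Pdia4, Hspa5, Hsp90b1 and Pdia6 differed by -0.27, -0.20, -0.05 and -0.03. Limma called 0 of 10 at an adjusted p under 0.05 and 0% of all genes, and 6 of 10 had an unadjusted p under 0.05, against 15.1% of all genes. The pools of 5 of the 10 genes lay wholly below control, against 12.1% of all genes. By the second brightest probe sets, ON F2 pools of Hspa5 and Hsp90b1 also lay wholly below control, but those of Dnajc3 overlapped with it.

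These ON F2 values rested on pools that were unlike. Against the control mean, the 10-gene median was -0.17 in pool 13, -0.43 in pool 14 and -0.76 in pool 15. Without pool 15 it was -0.38 over the group, and 8 of 10 genes stayed negative. Pool 13 also differed in pancreatic acinar markers: 17 of 17 stood above the control mean there, with a list median of 3.95, against -0.04 to 0.21 in the other 14 pools. The carboxypeptidase genes Cpa1 and Cpb1 were at 9.09 and 9.35 in pool 13 and between 4.17 and 4.66, and 3.33 and 3.94, in the other 14. Acinar cells are rich in ER chaperones, and the part of these cells in the levels of pool 13 was not tested. Without pool 13 the median difference of the 10 genes in ON F2 was -0.61, with all 10 negative.

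In IUGR F1 all 10 means were below control, with a median of -0.23 against 0.01 over all genes. Hsp90b1 had the smallest p, at -0.34 ± 0.11 (limma adjusted p = 0.472), below control in 3 of 3 pools. Creld2, Sdf2l1 and Hyou1 differed by -0.39 ± 0.39, -0.30 ± 0.27 and -0.27 ± 0.21, and Hspa5 by -0.17 ± 0.16. Limma called 0 of 10 at an adjusted p under 0.05 and 0% of all genes, and 1 of 10 had an unadjusted p under 0.05 (8.43% of all genes). Of the 10 genes 2, Hsp90b1 and Dnajb9, lay wholly below control, against 5.89% of all genes. The second brightest Pdia6 probe set also lay wholly below control in IUGR F1. That of Hsp90b1 overlapped with control, at 10.44 in pool 5 against 10.34 in control pool 1. The value rested on pool 6: without it the median was 0.0067 and 3 of 10 genes were negative, with Hsp90b1 at -0.21.

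In ON F1 all 10 means were again below control, with a median of -0.30 against 0.02 over all genes. Hsp90b1 differed by -0.35 ± 0.11 (limma adjusted p = 0.206), below control in 3 of 3 pools, Creld2 by -0.53 ± 0.39 and Sdf2l1 by -0.36 ± 0.27. Limma called 0 of 10 at an adjusted p under 0.05, with 0.0220% of all genes called, and 1 of 10 at an unadjusted p under 0.05 (14% of all genes). The pools of 3 genes, Hsp90b1, Dnajb9 and Manf, lay wholly below control, against 6.23% of all genes. By the second brightest probe sets, ON F1 pools of Hspa5, Hyou1 and Dnajc3 also lay wholly below control, but those of Hsp90b1 overlapped with it. Without pool 7 the median was -0.10 and 9 of 10 genes were negative.

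In IUGR F2 the chaperones stood closest to control. Of the 10 genes 8 were negative, with a median of -0.07 against -0.01 over all genes. Hyou1 differed most, by -0.32 ± 0.21 (limma adjusted p = 0.801), and Hsp90b1 and Pdia6 were higher by 0.08 ± 0.11 and 0.08 ± 0.13. Limma called 0 of 10 and 0% of all genes, with 0 of 10 at an unadjusted p under 0.05 (7.05% of all genes). The pools of 0 of 10 genes lay wholly below control by the probe sets used, against 8.12% of all genes. By the dimmer second Hyou1 probe set the IUGR F2 pools did lie wholly below control. The 95% interval for Hspa5 ran from -0.35 to 0.32 and that for Creld2 from -1.01 to 0.65. Differences within these bounds were not excluded with 3 pools. With a clock score as a covariate the median was 0.0001 and 5 of 10 genes were negative.

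**Figure D3:**
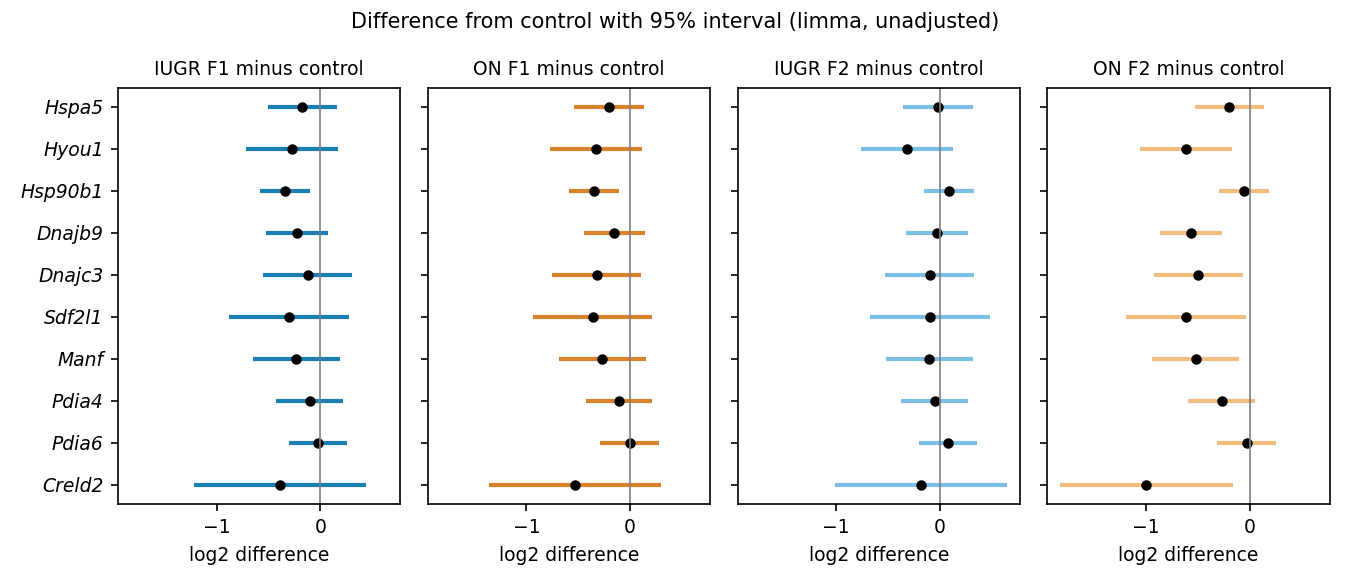
Log2 difference from control of each chaperone gene in the 4 other groups (points), with unadjusted 95% intervals from limma (bars). Most intervals cross 0; those of Hsp90b1 in the first-generation groups and of Hyou1, Dnajb9, Dnajc3, Sdf2l1, Manf and Creld2 in ON F2 lie below 0, although 0 of 10 genes passed after adjustment over all genes.

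The 4 comparisons share the same control pools, so their values are not independent of each other. Over the 5 groups the mean was highest in control for 8 genes and in IUGR F2 for Hsp90b1 and Pdia6, and lowest in ON F2 for 8 genes and in ON F1 for Hspa5 and Hsp90b1. Not all neighbours in that order were compared, since IUGR F2 was not tested against ON F1, nor IUGR F1 against ON F2. In the comparisons between groups that were run, 0 of 10 genes passed the threshold. Between ON F2 and ON F1, where 1.43% of all genes were called, Dnajb9 differed by -0.42 ± 0.14 (limma adjusted p = 0.129). Its 3 ON F2 pools lay below ON F1, as did those of 2554 of all 18193 genes. Of the 10 genes 2 had an unadjusted p under 0.05 (19.3% of all genes), Dnajb9 and Hsp90b1. The latter was higher in ON F2, by 0.30 ± 0.11. Between IUGR F2 and ON F2, with 0.00550% of all genes called, all 10 genes were higher in IUGR F2 (median 0.35), with Dnajb9 at 0.54 ± 0.14 (limma adjusted p = 0.245) and 1 of 10 at an unadjusted p under 0.05 (10.1% of all genes). Between IUGR F2 and IUGR F1, with 0.0110% of genes called, 1 of 10, Hsp90b1, had an unadjusted p under 0.05 (11.4% of all genes). Between IUGR F1 and ON F1, also with 0.0110% called, 0 of 10 did (6.35% of all genes) and the 10 differences lay between -0.07 and 0.20. The lineage by generation interaction (0.0110% called) was positive for all 10 genes, with Dnajb9 at 0.61 ± 0.20 (limma adjusted p = 0.512) and 1 of 10 at an unadjusted p under 0.05 (7.71% of all genes). In the moderated F test over 5 groups, with 0.187% of genes called, 2 of 10 had an unadjusted p under 0.05 (18% of all genes): Hsp90b1 (limma adjusted p = 0.126) and Dnajb9 (limma adjusted p = 0.152).

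Genes outside the 10 that followed their mean most closely over the 15 pools were sought among 7805 genes with a mean of at least 6. Dnajb11 (ERdj3), the J-domain partner of Hspa5 and Sdf2l1, came first (r = 0.96, 0.97 after subtracting group means). Next were the Golgi GTPase Arl1 (0.94), the signal peptidase subunit Spcs3 (0.93), the ubiquitin ligase of ER-associated degradation Syvn1 (0.92) and its complex members Selenos (0.91) and Sel1l (0.90). The vesicle tether Uso1 (0.91), the ER calcium pump Atp2a2 (0.90), the COPII coat gene Sec24d (0.89) and its partner Sec23ip (0.88) completed the 10. Of these 10, 5 were also among the 10 closest after subtracting group means, where Fndc3b, Pdxdc1, Paip2b, Ostc and Gmppb joined (0.92 to 0.95). The median r over the 7805 genes was 0.08.

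The lists of other ER genes moved with the chaperones but less far. Against the control mean in pools 6, 7 and 15, the median of 20 other ER folding genes was -0.20, -0.22 and -0.27. It was -0.20, -0.26 and -0.31 for 16 genes of ER-associated degradation, which export misfolded proteins for destruction, and -0.23, -0.10 and -0.20 for 19 genes of translocation, which bring new chains in. The lists' members had a median r with the chaperone mean of 0.67, 0.73 and 0.69. Within the folding list the spread was wide: Pdia3 reached 0.82 and the lectin chaperone Calr 0.74, but its partner Canx 0.20 and Fkbp2 -0.11. The sensors and regulators of the response had a median r of 0.35 over 13 genes, with Ddit3 at 0.55, Atf6 at 0.49, Xbp1 at 0.29, Ern1 (IRE1) at 0.11 and Atf4 at -0.04. Genes of these lists were picked here by role, after their values were seen. The array reads total Xbp1 RNA, and splicing and translation, through which the response acts, were not measured.

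**Figure D4:**
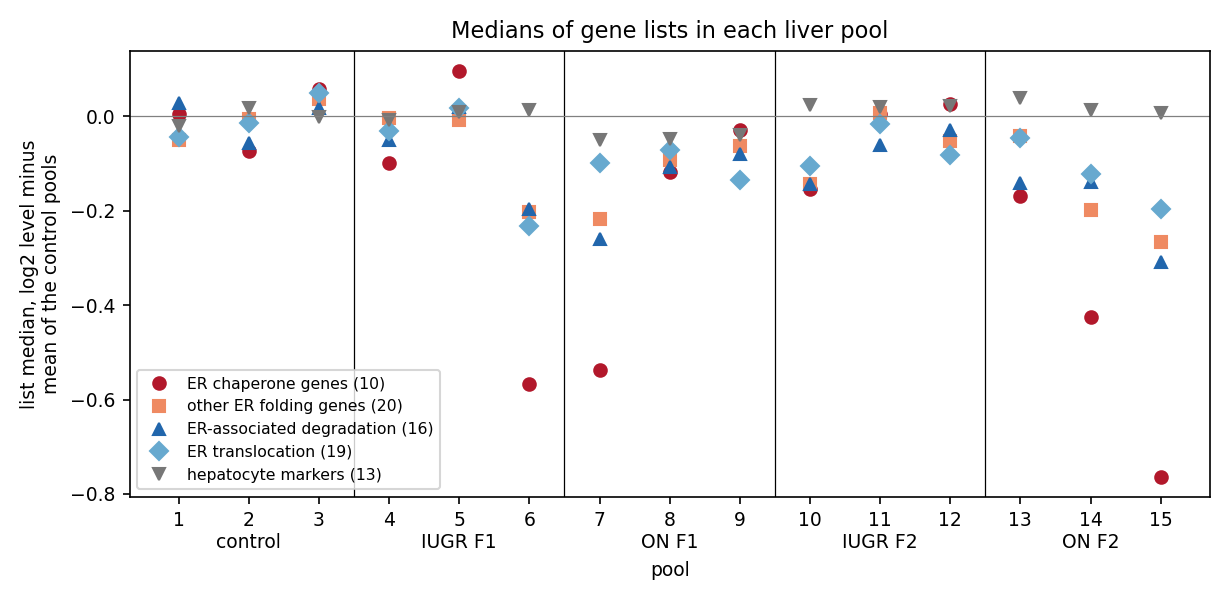
Median of each gene list per liver pool, as log2 level minus the mean of the control pools (number of genes in brackets; points are pools, vertical lines separate groups). Chaperone medians (circles) reach -0.57, -0.54 and -0.76 in pools 6, 7 and 15, medians of the other ER folding, degradation and translocation lists lie between -0.31 and -0.10 there, and hepatocyte markers stay between -0.05 and 0.04 in all 15 pools.

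In ON F2 against control, 17 of 20 other folding genes, 14 of 16 degradation genes, 16 of 19 translocation genes and 10 of 15 sensors and regulators were negative, with medians of -0.16, -0.22, -0.13 and -0.18, while 50.7% of all genes were negative. Limma called 0 in each list, in either direction, in all 4 comparisons with control. At an unadjusted p under 0.05, 8, 8, 5 and 6 genes were lower in ON F2 and 0 higher, where 15.1% of all genes had such a p in either direction. Those with the smallest p were the thioredoxin-domain gene Txndc11 (-0.48 ± 0.12) and Erp29 (-0.39 ± 0.10), and the mannosidase Man1b1 (-0.35 ± 0.08, limma adjusted p = 0.12) with the lectin Erlec1 (-0.24 ± 0.08). In the other lists they were the signal recognition receptor subunit Srprb (-0.75 ± 0.17, limma adjusted p = 0.12) with Ssr2 (-0.35 ± 0.10), and the sensor Eif2ak3 (PERK, -0.42 ± 0.11) with Atf6b (-0.41 ± 0.11). In ON F1, 17 of 20, 15 of 16, 17 of 19 and 9 of 15 were negative (45% of all genes), with Txndc5 at -0.34 ± 0.11, Edem2 at -0.35 ± 0.10 and Srp9 at -0.23 ± 0.07. In IUGR F1 the counts were 17, 13, 17 and 10 (47.7% of all genes), and in IUGR F2 12, 11, 16 and 10 (53.4%), where Ern1 stood higher by 0.29 ± 0.12 (limma adjusted p = 0.683).

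Other measures of the pools were set beside the chaperone mean over the 10 genes. In whole tissue, fewer cells of a type and less RNA per cell cannot be told apart. The 13 measured hepatocyte markers stayed within -0.05 and 0.04 of the control mean as a median. Many of them lie near the top of the array's scale (Alb between 14.41 and 14.49), so this median shows that liver RNA was present but not whether other tissue was admixed, as the acinar markers differed in pool 13. Over 12 of these markers the median r with the chaperone mean was 0.04, but single genes went both ways. Fgb and Hnf4a stood at 0.70 and Fgg at 0.58, and Ttr at -0.70, Alb at -0.58 and Serpina1c at -0.56. The clock score, built from genes whose RNA cycles over the day, ranged from -2.28 to 1.59 and correlated with the chaperone mean at r = 0.10. In the low pools 6, 7, 14 and 15 it was -1.12, -2.28, 1.59 and -1.81. The log2 ratio of 3' to 5' actin probe sets, a sign of RNA length, ranged from 1.76 to 2.28 log2 units and correlated at -0.08. Of the 14 markers of Kupffer cells, the liver's macrophages, 14 were negative in IUGR F1, 10 in ON F1 and 12 in IUGR F2. The medians were -0.49, -0.10 and -0.22. In ON F2 12 were positive, with a median of 0.21, and 0 were called in each of these comparisons. Pool medians of these markers ran from -0.53 to -0.41 in IUGR F1, from -0.0078 to 0.48 in ON F2 and from -0.20 to 0.32 in control. They ran from -0.24 to -0.07 in ON F1 and from -0.52 to 0.14 in IUGR F2. Kupffer and plasma cell medians correlated with the chaperone mean at 0.05 and 0.32. Plasma cells also hold much ER. Of 12 markers in their list, which shares Fkbp11, Txndc5, Derl3 and Xbp1 with the ER lists, the median stood at -0.12, -0.31 and -0.10 in pools 6, 7 and 15 and at 0.07 or less in all pools. Single plasma cell genes differed further. The antibody-joining chain gene Jchain stood at 6.26, 7.41 and 6.19 in control pools and between 4.58 and 6.21 in the other 12. It differed from control by -1.09, -0.99, -1.68 and -1.22 in IUGR F1, ON F1, IUGR F2 and ON F2 (limma adjusted p = 0.432, 0.206, 0.285 and 0.134). The heavy chain gene Ighm differed by -2.14 ± 0.50 in IUGR F2 (limma adjusted p = 0.438), where the chaperones stood closest to control. Their part in the result was not tested.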

How the data were processed

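Whole-liver RNA pools were hybridised to 15 Affymetrix mouse genome arrays. The deposited values are log2 levels per probe set, made by the authors with RMA per the submitters' processing notes (version not given in the sources used here). RMA corrects background, quantile-normalises the arrays and summarises probes. It understates changes of dim genes. Array medians lay between 4.60 and 4.68. Of 45101 probe sets 64 controls were left out. Of the other 45037, 34945 named 1 gene, 932 several and 9160 none. For 34741, Entrez identifiers matched RefSeq GRCm38.p6.

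Group differences came from limma 3.58.1 (R 4.3.3), fitted as 1 model of 5 group means with empirical Bayes moderation. Tests were two-sided, with Benjamini-Hochberg adjustment over 18193 genes within a comparison and a threshold of 0.05. The fit was also run on simulated data with known changes, drawn independently for each gene. Precision is limited by the number of arrays, with a median SE of 0.104 per difference. Pool numbers pair no samples.

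The chaperone genes, gene lists and tests were chosen with earlier results of these data known. All 10 chaperones are named. From other lists the genes with the smallest p in a comparison (up to 2) are named, with those whose roles are described, chosen after their values were seen, and the 10 genes most correlated with the chaperone mean (z-scores over the pools) and those after subtracting group means. The clock score is the median level of 10 clock output genes minus that of 5 genes of opposite phase. Alternatives were averaging all probe sets of a gene, a filter at a mean of 5, an intensity trend, smaller fits, median centring, covariates (clock score, actin ratio) and leaving out each pool.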

Additional observations from a re-analysis of the deposited data

How the results depend on the processing

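Limma called 0 of the 10 chaperone genes in each of the 10 comparisons and under all 219 values of these counts from the alternatives. The smallest adjusted p of a chaperone gene was 0.126 as reported and 0.082 under an alternative. Of 880 alternative values for the 40 differences from control, 851 kept their sign and 29 took the opposite one, with sizes up to 0.11, and the cause was not tested. When all probe sets of a gene were averaged, Pdia4 stood at 0.0033 in ON F1 and Pdia6 at 0.054 in ON F2. With arrays centred on their medians, Hspa5 stood at 0.0023 in IUGR F2. With the clock score as a covariate, Pdia6 stood at 0.066 in ON F1, and Hspa5, Dnajb9 and Pdia4 at 0.065, 0.075 and 0.015 in IUGR F2. With the actin ratio as a covariate, Pdia6 stood at 0.022 in ON F1 and Dnajc3 at 0.021 in IUGR F2. Leaving out 1 pool at a time turned the sign for 15 differences, 7 of them without IUGR F1 pool 6. In IUGR F1 the ranges were Pdia6 -0.10 to 0.10, Hspa5 -0.32 to 0.0025, Hyou1 -0.46 to 0.019, Dnajc3 -0.21 to 0.0041, Pdia4 -0.19 to 0.029, Creld2 -0.78 to 0.081, Manf -0.40 to 0.0093. In ON F1 the ranges were Pdia6 -0.13 to 0.073. In IUGR F2 the ranges were Hspa5 -0.056 to 0.039, Sdf2l1 -0.18 to 0.0058, Pdia4 -0.10 to 0.036, Dnajb9 -0.18 to 0.10, Dnajc3 -0.23 to 0.11. In ON F2 the ranges were Hsp90b1 -0.11 to 0.019, Pdia6 -0.14 to 0.069. The median correlation between chaperone pairs was 0.66 to 0.77 without 1 pool, 0.81 after subtracting group means, 0.59 without pools 15 and 6 together and 0.63 as Spearman's rho. The last 2 were chosen after seeing the data. No paired analysis was possible because the groups share no pool numbers.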

Other observations

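The cytosolic heat shock genes, which serve protein folding outside the ER, moved with the ER chaperones in part. The median of the 13 measured genes stood at -0.53 in IUGR F1 pool 6 and -0.28 in ON F1 pool 7, both low in ER chaperones, and at 0.27 in IUGR F1 pool 5, where the ER chaperones were high. In ON F2 pool 15, lowest for the ER chaperones, it was only -0.18. The list median correlated with the ER chaperone mean at r = 0.68 over 15 pools. Among single genes Hsph1 reached 0.76 and Hspb8 0.75, but Hspa8 0.37 and Bag3 0.33.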
